A study of Mus musculus with 20 samples.

Results

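The chromatin marks at 10 genes of the JAK-STAT pathway, *Jak1*, *Jak2*, *Stat3*, *Stat5a*, *Stat5b*, *Socs1*, *Socs2*, *Socs3*, *Cish*, and *Pim1*, were examined in lineage-negative (Lin-) mouse bone marrow, the fraction from which mature blood cells have been depleted by their surface proteins. For each gene, the peaks were those that overlapped the GENCODE gene body extended by 20 kb on each side, in 12 peak lists that cover 3 histone marks (H3K27ac, H3K4me1, and H3K4me3) in each of 4 genotypes. GENCODE M21 annotates 55413 genes in all. The windows held 61 of 29659 H3K27ac peaks in the WT list, 42 of 22727 in the *Ep300*Δ/Δ list, 54 of 24539 in the *Tet2*-/- list, and 26 of 18327 in the list of both mutations together. The windows of *Stat5b*, *Stat5a*, and *Stat3*, which are neighbors, overlap, so a region there can belong to more than 1 gene, and it was counted once in totals.

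WT mice were *Ep300* fl/fl, *Ep300*Δ/Δ mice were *Mx1-Cre*;*Ep300* fl/fl, and *Tet2*-/- mice were *Ep300* fl/fl;*Tet2*-/-. The mice called double mutant here, *Ep300*Δ/Δ*Tet2*-/-, were *Mx1-Cre*;*Ep300* fl/fl;*Tet2*-/-. Every group thus carried floxed *Ep300* alleles, and every group received 3 doses of poly(I:C) at 6 to 8 weeks of age. Poly(I:C) induces interferon, which switches on *Mx1-Cre* in blood cells and in other tissues that respond to interferon. Interferon itself signals through JAKs and STATs, so no group shows these genes without that treatment, and only the *Ep300*-deleted groups carried Cre. The mice were on a C57BL/6 background. The methods give 2 weeks after the injections as the usual time of experiments and name no other for these libraries. The number of mice behind a library and any pooling were not given in the sources used here. There was 1 library for each genotype and mark. No difference between genotypes can therefore be set against a spread between mice, no tests were made, and intervals cover counting error only.

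JAK kinases sit on the inner side of cytokine receptors. A cytokine brings them together, they phosphorylate STAT proteins, and the STATs move to the nucleus and bind DNA at a palindrome of TTC and GAA. STAT targets include *Cish*, *Socs1*, *Socs2*, and *Socs3*, whose products in turn damp the receptor and the kinase, and *Pim1*, a survival kinase. In blood progenitors, STAT5 carries signals of erythropoietin, thrombopoietin, and interleukin-3 through JAK2. p300, the product of *Ep300*, acetylates H3K27, a mark of active promoters and enhancers. H3K4me1 marks enhancers in both their active and their inactive state, and H3K4me3 is the typical mark of a promoter.

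Peak lists do not give the depth of a library, and a region just under a caller's threshold counts as absent. Fold enrichment was over the H3 library of the same genotype, so regions of different lists are set side by side only by the percentile of their fold among all the peaks of their own list, and a fold is given for 1 list at a time. Of 7 progenitor marker genes, 7 had H3K27ac within 3 kb of a transcript start in WT and 7 in *Ep300*Δ/Δ cells, and 6 did in each of the other genotypes. Of 11 markers of mature blood cells, the number was 4 (WT), 2 (*Ep300*Δ/Δ), 2 (*Tet2*-/-), and 1 (double mutant), and of 3 markers of other tissues it was 0 in every list. Of the 11, *Hbb-b1* had no promoter entry under that name, so its absence from every list carries no information. The markers of mature cells were thus called most often in WT and least often in double-mutant cells, and the summed H3K27ac counts at the 10 genes were also highest in the former and lowest in the latter. So were the whole H3K27ac lists, with 29659 peaks in WT and 18327 in double-mutant cells. The share of protein-coding genes with promoter H3K27ac was 47.3% in WT and 43.1% in double-mutant cells. The part of the mature cells in the results was not tested. In such a mixture, fewer cells of a type and less of a mark per cell cannot be told apart.

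H3K27ac was called at the promoters of 9 of 10 genes in WT cells, against 47.3% of 21911 protein-coding genes. It was called at those of 8 of 10 in each of the other 3 genotypes, against 45.0% (*Ep300*Δ/Δ), 46.4% (*Tet2*-/-), and 43.1% (double mutant). A promoter here is any place within 3 kb of a GENCODE transcript start. *Jak1*, *Jak2*, *Stat3*, *Stat5a*, *Stat5b*, *Socs1*, *Cish*, and *Pim1* carried it in all 4 genotypes, which 40.0% of protein-coding genes did. *Socs2* carried it in none, and *Socs3* only in WT cells. H3K4me1 and H3K4me3 were called at the promoters of all 10 genes in all 4 genotypes, as they were at 53.4% and 60.1% of protein-coding genes. Every promoter was therefore marked, and except at *Socs2*, which had no acetylation, the genotypes differed in which stretches around it were acetylated.

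**Figure D1:**
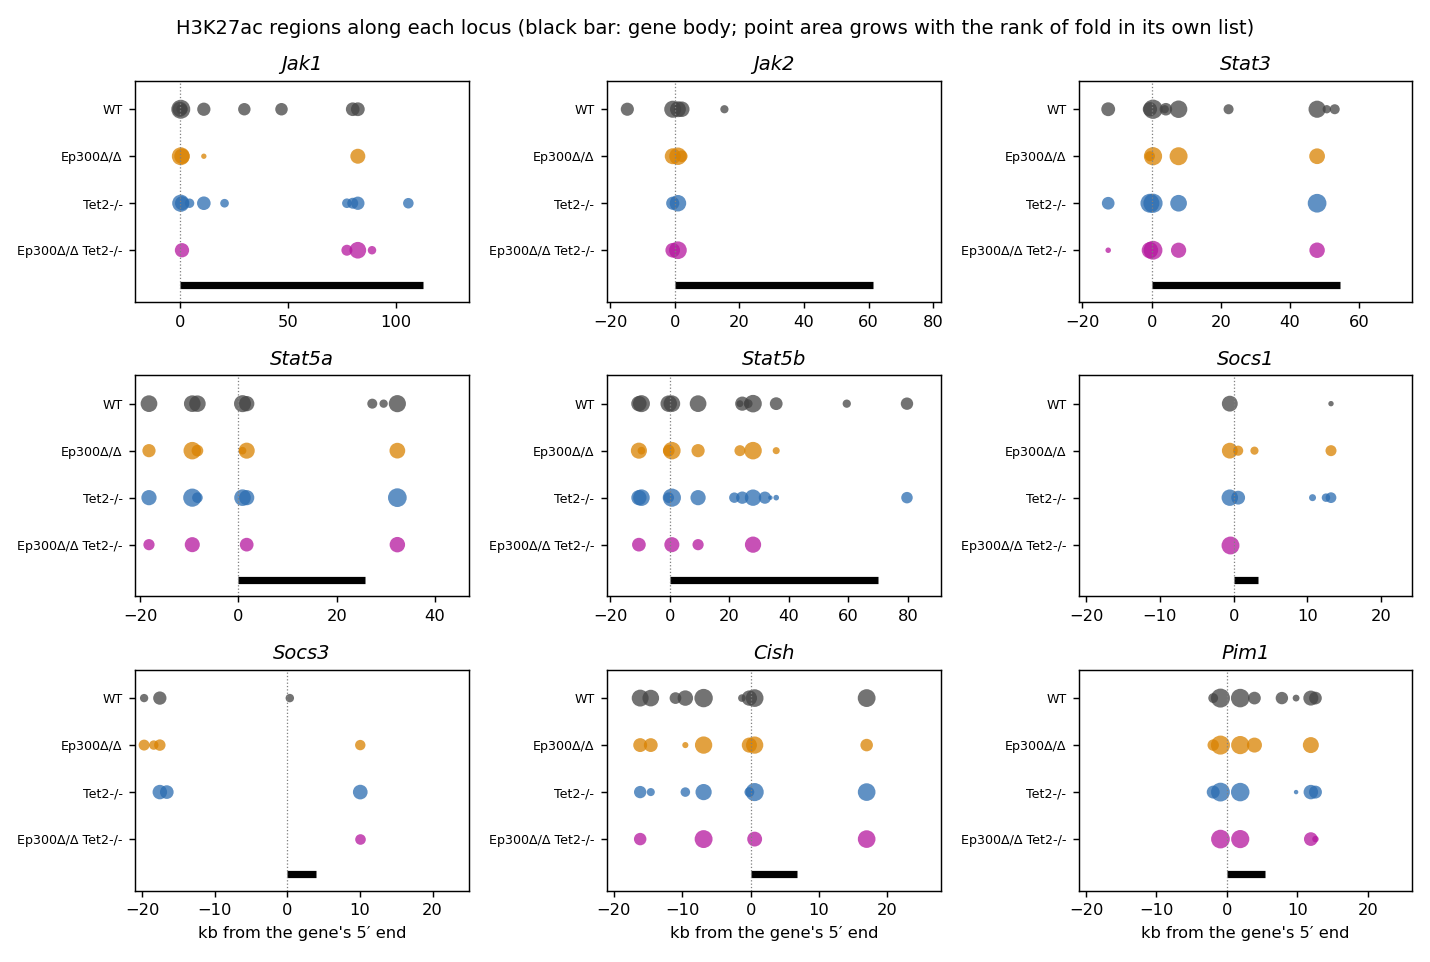
H3K27ac regions at 9 of the 10 genes, by distance from the annotated 5′ end of the gene (kb, positive downstream) and by genotype. The black bar is the gene body, and the area of a point grows with the percentile of its fold in its own list. Except at *Socs3*, each drawn gene had a region at its 5′ end in all 4 genotypes. Of all regions at the 10 genes, 41.0% of those at promoters and 12.1% of those outside were called in all 4, beside 49.9% and 14.4% over the whole lists. *Socs2* had none and is not drawn.

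*Jak1* and *Jak2* encode the kinases, JAK1 serving interferon and interleukin-6 family receptors and JAK2 those of erythropoietin and thrombopoietin. At *Jak1*, H3K27ac peaks numbered 8 (WT), 4 (*Ep300*Δ/Δ), 10 (*Tet2*-/-), and 4 (double mutant). At *Jak2*, they numbered 6, 3, 2, and 2 in the same order. Both counts were lower with *Ep300* deleted on the WT background, and on the *Tet2*-/- background only *Jak1* was.

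The strongest *Jak1* region in WT cells lay at its 5′ end (chr4:101264940-101265237), with a fold of 27.1 at the 94.7th percentile. It stood at the 83.8th percentile in *Ep300*Δ/Δ and the 76.9th in *Tet2*-/- cells and was not called in double-mutant cells. The next region into the gene (chr4:101264236-101264829) was called in all 4 genotypes, at the 30.5th to the 60.8th percentile, so the promoter as a whole remained acetylated, and H3K4me3 covered both regions in every genotype. Another promoter region just upstream (chr4:101265356-101265602) was called in WT cells alone. Within the gene, a region near internal transcript starts (chr4:101182481-101183188) was called in all 4 genotypes. A pair of regions near it differed, of which one (chr4:101184932-101185495) was called in WT and *Tet2*-/- cells and the other (chr4:101187574-101188262) in *Tet2*-/- and double-mutant cells. Of its 7 regions outside promoters, 6 were called in a single genotype (37.7% of all regions over the lists, promoters included, were). One of these (chr4:101176007-101176504, in an intron) was the only region gained on the *Tet2*-/- background at the 10 genes, with a fold of 4.17 at the 14.6th percentile of the double-mutant list.

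The intronic *Jak1* region 10.9 kb into the gene was, among regions outside promoters at the 10 genes, the strongest of those lost from *Tet2*-/- to double-mutant cells. Its fold was 6.16 in *Tet2*-/- cells, at the 46.1st percentile of that list. It was also called in WT cells, at the 43.6th percentile, and in *Ep300*Δ/Δ cells, at the 2.54th. Around its summit, 200 bases of the plus strand of GRCm38 (chr4:101254105-101254304) are shown because this is the intronic element whose acetylation call went. They hold no match to the STAT palindrome, so no base is in capitals.
Jak1 intron: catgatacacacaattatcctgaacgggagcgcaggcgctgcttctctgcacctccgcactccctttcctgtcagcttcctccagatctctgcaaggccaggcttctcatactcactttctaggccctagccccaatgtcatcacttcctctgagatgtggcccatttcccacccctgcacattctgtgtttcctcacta

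At *Jak2*, the promoter region upstream of the start (chr19:29250880-29251438) and the one at the start (chr19:29252046-29253503) were called in all 4 genotypes. The first was the strongest at the locus in WT cells, with a fold of 11.6 at the 75.5th percentile, and the second stood at the 64.9th to the 81.5th percentile over the lists. A region further in (chr19:29253664-29254238) was called in WT and *Ep300*Δ/Δ cells and in neither *Tet2*-/- genotype. Both regions of *Jak2* outside promoters, 14.7 kb upstream and 15.3 kb downstream of the 5′ end, were called in WT cells alone. Acetylation calls outside the *Jak2* promoter were thus absent from all 3 mutant genotypes, whether or not *Ep300* was deleted.

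*Stat3*, *Stat5a*, and *Stat5b* encode the transcription factors, and the 2 STAT5 genes lie head to head. H3K27ac peaks at *Stat5b* numbered 13 (WT), 9 (*Ep300*Δ/Δ), 12 (*Tet2*-/-), and 4 (double mutant). At *Stat5a* they numbered 8, 7, 6, and 4, and at *Stat3* 10, 5, 5, and 5. Of the 10 genes, *Stat5b* lost the most peaks when *Ep300* was deleted on the *Tet2*-/- background, whereas *Stat3* had the same count in the 3 mutant genotypes.

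At *Stat5b*, regions at the 5′ end (chr11:100849658-100850276), at an internal start (chr11:100822230-100823185), and in an intron 9.56 kb from the 5′ end (chr11:100840843-100841479) were called in all 4 genotypes. The one at the internal start was the strongest in WT cells, with a fold of 13.4 at the 80.4th percentile. The promoter region just upstream of the start (chr11:100850790-100851238) was called in 3 genotypes and not in double-mutant cells, and a region at the internal start (chr11:100823965-100824711) in WT cells alone. Of its 8 regions outside promoters, 4 were called in a single genotype (37.7% of all regions over the lists, promoters included, were). The strongest region outside promoters lost with *Ep300* deletion on the WT background at any of the 10 genes lay in a *Stat5b* intron 24.4 kb into the gene (chr11:100826035-100826596), with a fold of 6.80 at the 50.9th percentile of the WT list. It was also called in *Tet2*-/- cells, at the 37.1st percentile, and not in double-mutant cells, so its call was absent wherever *Ep300* was deleted, while H3K4me1 was called there in all 4 genotypes. The 200 bases around its WT summit (plus strand, GRCm38, chr11:100826305-100826504) hold no match to the palindrome.
Stat5b intron: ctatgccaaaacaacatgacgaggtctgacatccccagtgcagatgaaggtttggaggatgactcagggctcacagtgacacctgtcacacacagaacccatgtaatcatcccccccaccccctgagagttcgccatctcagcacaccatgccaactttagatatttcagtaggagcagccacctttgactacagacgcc

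*Stat5a* had a region at its first exons (chr11:100860528-100861542) in all 4 genotypes. A second promoter region (chr11:100860022-100860346) stood at the 75.2nd percentile in WT, the 11.1st in *Ep300*Δ/Δ, and the 71.3rd in *Tet2*-/- cells and was not called in double-mutant cells. The strongest region of its window in WT cells, at an internal start of *Stat3* (chr11:100890996-100892353), had a fold of 11.97 at the 76.7th percentile and was called in all 4 genotypes. With the *Jak1* start, the second *Stat5a* promoter region was one of the 3 regions above the median fold of the *Tet2*-/- list that were lost.

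*Stat3* had the strongest H3K27ac peak of the 10 genes in WT cells, at its start (chr11:100938666-100939600), with a fold of 39.9 at the 98.2nd percentile. It stood at the 87.2nd, 97.0th, and 93.7th percentile of the other 3 lists. An intronic region 7.80 kb into the gene (chr11:100931382-100932091) was called in all 4 genotypes and carried H3K4me1 and H3K4me3 in all 4. Over the lists, 21.1% of all regions were called in WT cells alone. The rest of the *Stat3* locus differed between genotypes: 5 of its 10 regions were called in WT cells alone, of which 4 lay outside promoters. The 1 whose place was a promoter lay at an internal start (chr11:100888706-100889058). A region 12.6 kb upstream (chr11:100951796-100952383) was called in every genotype but *Ep300*Δ/Δ.

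*Socs1*, *Socs2*, and *Socs3* encode suppressors of cytokine signaling, of which SOCS1 and SOCS3 block JAK kinases directly. H3K27ac peaks at *Socs1* numbered 2 (WT), 4 (*Ep300*Δ/Δ), 5 (*Tet2*-/-), and 1 (double mutant). At *Socs3* they numbered 3, 4, 4, and 1. The count was thus higher with *Ep300* deleted on the WT background and lower on the *Tet2*-/- background at both genes, a difference that could not be tested. In the *Socs3* window, all 3 regions lost on the *Tet2*-/- background lay at the promoter of the neighboring gene *Pgs1*, and the region downstream of *Socs3* was kept. A minimum −log10 *q* of 5, a cutoff chosen after seeing the data, left 1, 1, 3, and 1 at *Socs1* and 1, 0, 3, and 1 at *Socs3*, and then no rise remained on the WT background.

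The *Socs1* promoter region (chr16:10785602-10786497) was called in all 4 genotypes, with a fold of 8.82 in WT cells, and stood at the 64.8th, 64.4th, 70.1st, and 83.9th percentile of the lists. A region in the gene (chr16:10784780-10785050) was called in *Ep300*Δ/Δ and *Tet2*-/- cells only, and another (chr16:10782582-10782818) in *Ep300*Δ/Δ cells only. Downstream, a stretch 13.2 kb from the 5′ end (chr16:10771852-10772754) held peaks in WT, *Ep300*Δ/Δ, and *Tet2*-/- cells and none in double-mutant cells. The WT peak and the *Ep300*Δ/Δ peak in that stretch did not overlap each other, so the comparison of those 2 lists counted 1 loss and 1 gain there. The *Ep300*Δ/Δ peak was the strongest region gained outside promoters on the WT background, with a fold of 4.35 at the 28.4th percentile. The 200 bases that follow (plus strand, GRCm38, chr16:10772329-10772528) are shown because they hold 2 palindromes, in capitals, the second inside the *Ep300*Δ/Δ peak and the first just before it.
Socs1 downstream: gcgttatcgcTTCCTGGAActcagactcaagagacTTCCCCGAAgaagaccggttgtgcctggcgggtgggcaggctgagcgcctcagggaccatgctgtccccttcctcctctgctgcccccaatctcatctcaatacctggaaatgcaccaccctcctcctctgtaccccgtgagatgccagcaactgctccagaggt

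*Socs3* had H3K27ac at its own promoter (chr11:117969536-117969920) in WT cells alone, with a fold of 4.05 at the 14.5th percentile of that list. H3K4me3 was called at that promoter in all 4 genotypes, at the 59.8th, 63.3rd, 57.9th, and 55.1st percentile, and H3K4me1 in all 4. The promoter was therefore a marked one whose acetylation was at the weak end of the only list that held it. Of its 6 regions, 4 lay at the promoter of *Pgs1*, a neighboring gene of phospholipid synthesis, among them the strongest of the window in WT cells (chr11:117987161-117988134), with a fold of 6.12 at the 44.0th percentile. The sixth, 10.0 kb downstream of the 5′ end (chr11:117959805-117960227), was called in all 3 mutant genotypes and not in WT cells, at the 24.8th (*Ep300*Δ/Δ), 54.7th (*Tet2*-/-), and 26.0th (double mutant) percentile. It was the only one of the 72 regions at the 10 genes that only the WT list lacked, and H3K4me1 lay there in all 4 genotypes. H3K4me3 at the locus numbered 4 peaks in WT and 4 in *Tet2*-/- cells, and 7 and 8 with *Ep300* deleted. The H3K4me3 regions called only with *Ep300* deleted were at that downstream site (at the 7.47th and 8.07th percentile) and beside the *Pgs1* promoter (at the 14.8th and 14.9th). The other added peaks fell within regions called in all 4 genotypes.

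The *Socs3* promoter of RefSeq (GRCm38, minus strand, the first 250 of the 300 bases at chr11:117969317-117969616, which end at the start) holds 1 STAT palindrome at position -154 from the start, in capitals, and is shown because H3K4me3 covered it in every genotype.
Socs3 promoter: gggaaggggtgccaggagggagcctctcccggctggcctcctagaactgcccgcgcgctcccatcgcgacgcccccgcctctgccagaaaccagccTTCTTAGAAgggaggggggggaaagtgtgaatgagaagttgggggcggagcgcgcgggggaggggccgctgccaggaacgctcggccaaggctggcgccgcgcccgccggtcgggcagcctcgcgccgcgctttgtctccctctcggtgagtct
The downstream region that only the WT list lacked holds 1 palindrome (plus strand, GRCm38, chr11:117960015-117960214).
Socs3 downstream: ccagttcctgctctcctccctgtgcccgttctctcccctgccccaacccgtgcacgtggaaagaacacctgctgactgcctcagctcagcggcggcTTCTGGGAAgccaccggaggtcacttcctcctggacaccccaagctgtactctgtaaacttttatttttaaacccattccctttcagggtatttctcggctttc

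*Socs2* had no H3K27ac peak in any list within 20 kb of its gene body. H3K4me1 peaks numbered 6 (WT), 6 (*Ep300*Δ/Δ), 8 (*Tet2*-/-), and 7 (double mutant), and H3K4me3 peaks 2, 3, 4, and 3. H3K4me3 covered 4222, 4147, 3861, and 4055 bp of peaks at its promoters, beside 3533 bp at the acetylated *Socs1* in WT cells. The wider *Socs2* region also lay at the start of *5730420D15Rik*. In the same genotype order, the strongest promoter H3K4me3 peak stood at the 44.6th, 75.9th, 62.8th, and 75.8th percentile at *Socs2*. At *Socs1* it stood at the 72.6th, 73.5th, 64.8th, and 90.5th. A promoter with H3K4me3 in all 4 genotypes and H3K27ac in none was not rare, since 2465 of 13176 such genes (18.7%) had it.

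*Cish* encodes the first known member of the SOCS family and is a classic target of STAT5. H3K27ac peaks at its locus numbered 10 (WT), 7 (*Ep300*Δ/Δ), 9 (*Tet2*-/-), and 4 (double mutant). Of its 9 regions, 4 lay at promoters of other genes, *Mapkapk3* among them, and 3 at its own. The strongest in WT cells was one of those at *Mapkapk3* (chr9:107287887-107290392), with a fold of 18.9 at the 89.1st percentile, and it was called in all 4 genotypes. The region over the first exons (chr9:107296146-107297066) was called in all 4 genotypes, at the 81.6th, 77.7th, 86.1st, and 56.3rd percentile. The region before it (chr9:107295610-107296051) was called in 3 genotypes and not in double-mutant cells, and the outermost (chr9:107294647-107294834) in WT cells alone. The own promoter of *Cish* thus kept its core and had fewer flanking regions in the mutants.

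The core region of *Cish* held 4 STAT palindromes in 131 bp. Of 35252 H3K27ac regions of the 4 lists together, 19 (0.0539%) held 4 or more, and this one was singled out after its motifs were counted. The sites form 2 pairs, printed as 30 bases each from the plus strand of GRCm38, the first at chr9:107296654-107296683 with its sites starting 11 bases apart and the second at chr9:107296762-107296791 with its sites starting 17 bases apart. GENCODE places both pairs in untranslated exon sequence of *Cish* transcripts.
Cish pair 1: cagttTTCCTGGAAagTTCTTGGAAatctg
Cish pair 2: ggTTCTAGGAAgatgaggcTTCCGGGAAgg

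A *Cish* region 17.0 kb downstream of the 5′ end (chr9:107312512-107313452) was called in all 4 genotypes and carried H3K4me1 and H3K4me3 in all 4. It stood at the 82.96th (WT), 38.4th (*Ep300*Δ/Δ), 81.48th (*Tet2*-/-), and 81.48th (double mutant) percentile. It was 1 of 4 regions outside promoters at the 10 genes, of 33 (12.1%), that every list held, beside 14.4% over the whole lists, with the *Stat3* intron, the *Stat5b* intron, and a *Pim1* region. It holds 1 palindrome (plus strand, GRCm38, chr9:107312920-107313119).
Cish downstream: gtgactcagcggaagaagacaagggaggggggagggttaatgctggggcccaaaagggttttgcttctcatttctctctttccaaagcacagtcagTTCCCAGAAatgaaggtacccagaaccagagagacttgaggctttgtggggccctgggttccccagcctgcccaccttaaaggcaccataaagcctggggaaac

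*Pim1*, the survival kinase, had 9 (WT), 6 (*Ep300*Δ/Δ), 7 (*Tet2*-/-), and 5 (double mutant) H3K27ac peaks. The region upstream of the start (chr17:29489279-29490410) was at the 95.3rd percentile in WT, with a fold of 28.4, and at the 95.7th, 93.2nd, and 92.2nd in the other 3 lists. The region over the gene (chr17:29491103-29494205) was also called in all 4. *Pim1* was therefore the gene whose promoter stood highest in every list beside *Stat3*. A pair of promoter regions differed between genotypes. The outer upstream one (chr17:29488496-29489133) was not called in double-mutant cells, and the one further into the gene (chr17:29494343-29495004) was called in WT and *Ep300*Δ/Δ cells only. Downstream, the region 11.9 kb from the 5′ end (chr17:29502399-29502963) was called in all 4 genotypes at the 57.5th, 65.9th, 53.0th, and 47.1st percentile, and one 7.82 kb from the 5′ end (chr17:29498370-29498765) in WT cells alone.

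**Figure D2:**
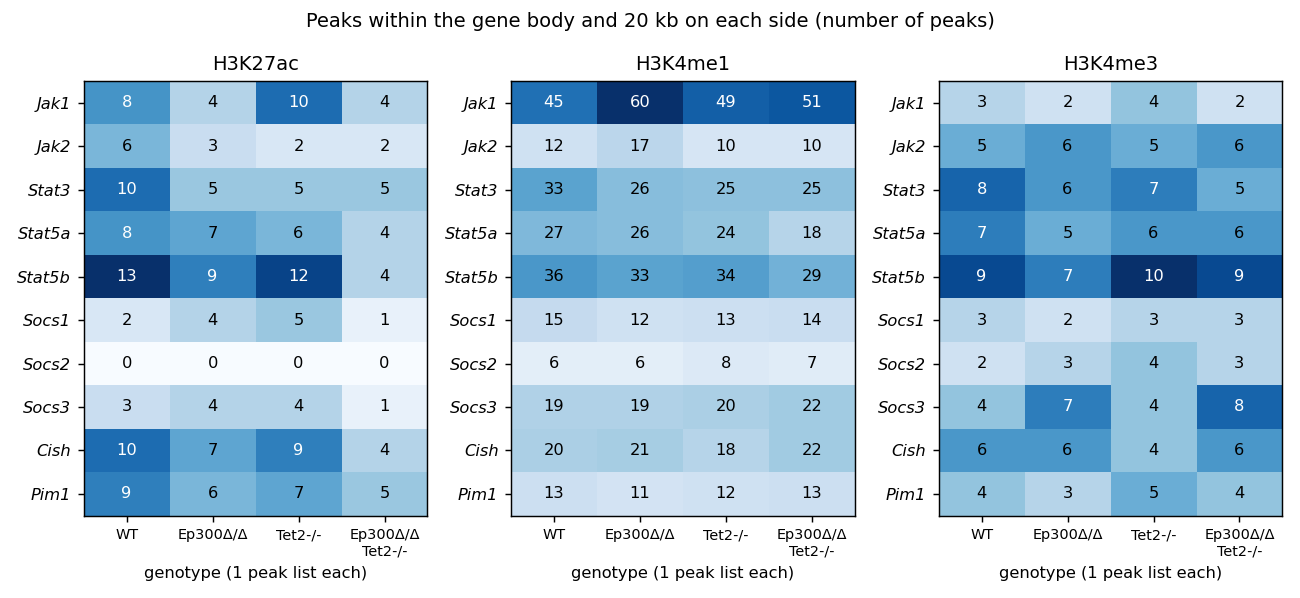
Number of peaks within the gene body and 20 kb on each side, by gene, mark, and genotype, 1 peak list per column and with a color scale of its own for each mark. H3K27ac counts were lowest in double-mutant cells, or tied for lowest, at every gene that had any, whereas H3K4me1 and H3K4me3 counts kept no such order.

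Over the 10 genes, distinct H3K27ac peaks fell in number with *Ep300* deletion from 61 to 42 on the WT background, a ratio of 0.689 against 0.766 for the whole lists. On the *Tet2*-/- background they went from 54 to 26, a ratio of 0.481 against 0.747. The length they covered changed by ratios of 0.585 and 0.634, against 0.613 and 0.794 for the whole lists. H3K4me1 peaks numbered 198, 204, 188, and 192 in the order WT, *Ep300*Δ/Δ, *Tet2*-/-, double mutant, and those of H3K4me3 44, 42, 46, and 46. With *Ep300* deletion the H3K4me3 count thus changed by ratios of 0.955 and 1.0, against 0.951 and 0.981 for the whole lists. The H3K4me1 count changed by 1.03 and 1.02, against 0.845 and 0.953 for the whole lists. The covered length of H3K4me1 changed by 1.001 on the WT and 0.864 on the *Tet2*-/- background, against 0.849 and 0.833 for the whole lists. That of H3K4me3 changed by 0.941 and 0.908, against 0.925 and 0.948.

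For each pair of lists, peaks were merged, and a merged region was called lost when the second list had no peak in it and gained when the first list had none. With *Ep300* deletion on the WT background, 25 of 59 H3K27ac regions at the 10 genes were lost, which is 42.4% with an exact (Clopper-Pearson) 95% interval of 29.6% to 55.9%, beside 39.7% of all regions. On the *Tet2*-/- background, 28 of 53 were lost, which is 52.8% (38.6% to 66.7%), beside 37.8% of all regions. The first share lies near that of the lists. The second interval only just leaves out the share of the lists, and it held that share under 5 of 7 alternatives, for example 29.3% to 61.5% beside 33.6% with regions within 500 bp joined. Gains were 5 of 39 (12.8%, with 4.30% to 27.4%) on the WT background, beside 12.8% of all, and 1 of 26 (3.85%, with 0.0973% to 19.6%) on the *Tet2*-/- background, beside 15% of all.

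The lost regions were mostly weak ones. On the WT background, their median percentile was 32.9, against 67.7 for the 34 kept regions, and 23 of the 25 lay below the median of the list. On the *Tet2*-/- background, the medians were 25.3 for the lost and 67.9 for the 25 kept regions, and 25 of the 28 lost lay below the median. Over all regions, the medians were 26.6 and 69.0 in WT and 26.3 and 68.2 in *Tet2*-/- cells, so the same order held genome-wide. If each region were lost at the rate of all regions in its bin, with the list divided by fold into 4 equal bins, 25.1 of the 59 and 23.0 of the 53 would be lost, against 25 and 28 observed. With only regions above the median fold of the list, 2 of 27 (7.41%) were lost on the WT background and 3 of 21 (14.3%) on the *Tet2*-/- background, beside 12.9% and 11.8% of all such regions.

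**Figure D3:**
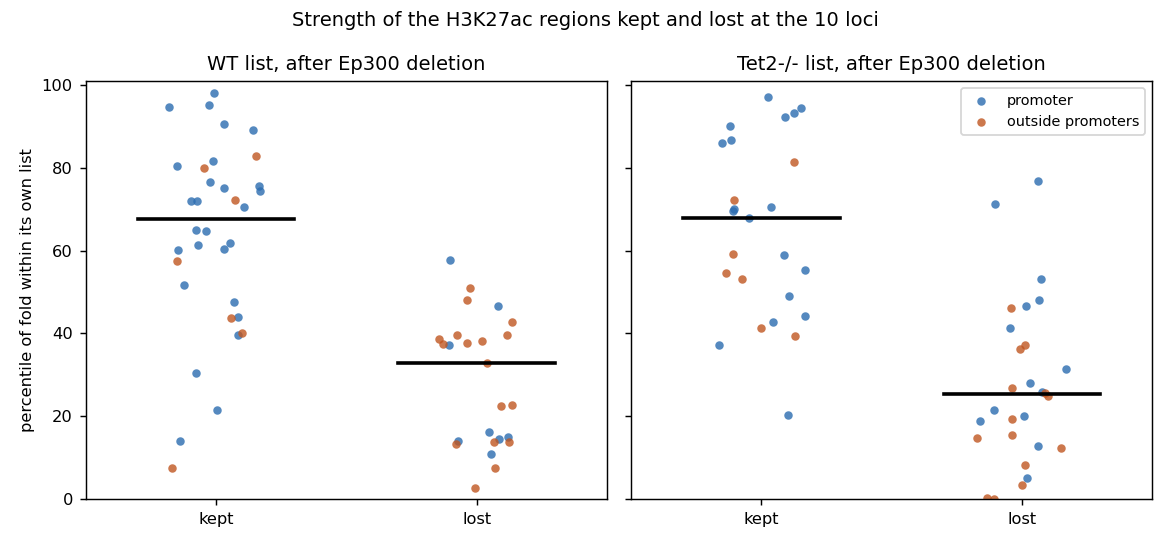
Percentile of fold, within the WT list (left) or the *Tet2*-/- list (right), of each H3K27ac region at the 10 genes that was kept or lost after *Ep300* deletion. Blue points are at promoters, orange points are outside them, and black bars are medians. Lost regions had medians of 32.9 and 25.3, kept regions of 67.7 and 67.9, and the 2 highest lost points on the right are the starts of *Jak1* and *Stat5a*.

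By place, 17 of 24 regions outside promoters (70.8%) and 8 of 35 at promoters (22.9%) were lost on the WT background, where the lists as a whole had 62.5% and 26.5%. On the *Tet2*-/- background, 14 of 21 outside promoters (66.7%) and 14 of 32 at promoters (43.8%) were lost, where the lists had 61.9% and 26.8%. Promoters of the 10 genes themselves lost 6 of 27 (22.2%) on the WT background, and promoters of other genes in the windows, namely *Mapkapk3*, *Pgs1*, and *Ghdc*, lost 2 of 8 (25.0%). On the *Tet2*-/- background, promoters of the 10 genes lost 7 of 23 (30.4%), near the share of the lists, and those of the other genes lost 7 of 9 (77.8%). The 7 own ones were 2 at *Jak1* and 1 each at *Stat5a*, *Stat5b*, *Socs1*, *Cish*, and *Pim1*, and at each of these genes another promoter region was still called. Some of these neighbors belong to 1 promoter, so they are not separate pieces of evidence.

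Active enhancers, which were H3K27ac peaks outside promoters that overlapped H3K4me1 of the same genotype, numbered 20 (WT), 9 (*Ep300*Δ/Δ), 20 (*Tet2*-/-), and 8 (double mutant). On each background, 14 of 20 were lost, which is 70.0% (45.7% to 88.1%), beside 63.1% of all active enhancers in WT and 61.7% in *Tet2*-/- cells. *Stat3* had 5 in WT and 1 in *Tet2*-/- cells, and *Jak1* had 2 and 5, so the 2 equal totals were divided differently among the genes. The *Tet2*-/- share ranged from 33.3%, beside 44.3% over the lists, with only peaks above the median fold to 91.7%, beside 61.7%, with windows of 5 kb.

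**Figure D4:**
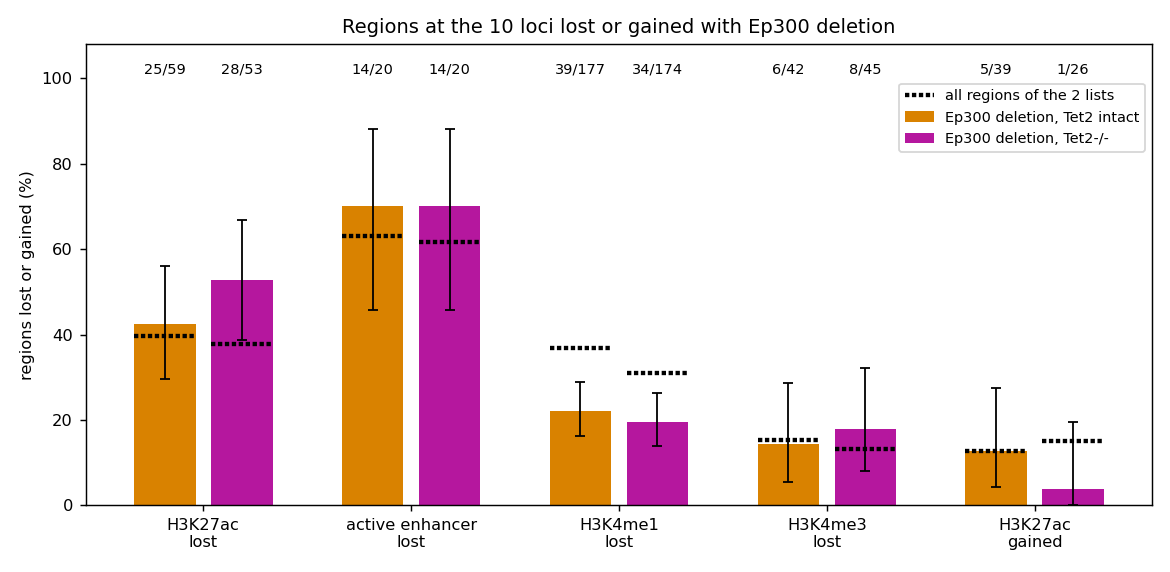
Share of regions (%) at the 10 genes lost or gained with *Ep300* deletion, on the WT background (orange) and the *Tet2*-/- background (purple). Error bars are exact 95% intervals for counting error, dashed lines are the shares over all regions of the same 2 lists, and the numbers above are regions called over regions present. The shares at the 10 genes lie closest to the dashed lines for acetylation gained on the WT background and lowest under them for H3K4me1.

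Loss of *Tet2* alone was compared in the same way. From WT to *Tet2*-/- cells, 20 of 57 H3K27ac regions were lost (35.1%), beside 35.6% of all, and 12 of 49 were gained (24.5%), beside 20.3% of all. From *Ep300*Δ/Δ to double-mutant cells, 18 of 40 were lost (45.0%, with 29.3% to 61.5%), beside 31.2% of all, and 4 of 26 were gained (15.4%), beside 18.5% of all. The 4 comparisons share lists, so they do not repeat each other independently.

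Read over the 4 lists at once, the 10 genes had 72 distinct H3K27ac regions, 39 at promoters, 20 in introns, 2 in exons, and 11 between genes. Of these, 20 were called in all 4 genotypes (27.8%, against 35.5% of all regions) and 28 in a single one (38.9%, against 37.7%). Of the 28, 16 were called in WT only (22.2% of the 72, against 21.1% of all regions), 9 in *Tet2*-/- only (12.5% against 9.48%), 2 in *Ep300*Δ/Δ only (2.78% against 3.82%), and 1 in double-mutant cells only (1.39% against 3.34%). Among the 14 regions called in exactly 3 genotypes, the double mutant was the missing one in 11 (78.6%), where over all such regions it was 56.1%. The regions missing from double-mutant cells alone made up 15.3% of the 72, against 6.48% of all, and those seen in WT cells alone were near the share of the lists.

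H3K4me1 mostly stayed where acetylation was not called. It was present after *Ep300* deletion at 20 of the 25 regions lost on the WT background (80.0%, against 73.5% of all lost regions), and at 26 of the 28 lost on the *Tet2*-/- background (92.9%, against 71.9%). Of the 72 regions, 55 had H3K4me1 in all 4 genotypes (76.4%, against 55.2% of all regions), and 9 had it in none (12.5%, against 18.0%). Of the 28 acetylated in a single genotype, 22 had H3K4me1 in all 4 (78.6%, against 55.02% of all such regions). The 9 without it include the starts of *Jak1*, *Jak2*, *Stat3*, *Stat5b*, and *Pim1*, where H3K4me3 was called in all 4.

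H3K4me1 regions themselves were lost less often at the 10 genes than in the lists. On the WT background 39 of 177 (22.03%, with 16.2% to 28.9%) were lost, beside 36.7% of all, and 39 of 177 (22.03%) were gained, beside 24.1% of all. On the *Tet2*-/- background 34 of 174 (19.5%, with 13.9% to 26.2%) were lost, beside 31.1% of all, and 24 of 164 (14.6%, with 9.61% to 20.99%) were gained, beside 23.4% of all. By the number of H3K4me1 peaks in the same window of each protein-coding gene, the 10 genes ranged in WT cells from the 57.2nd percentile (*Socs2*) to the 99.2nd (*Jak1*, which is also the longest of them). The higher count of *Jak1* in *Ep300*Δ/Δ than in WT cells came with nearly the same covered length, 33552 and 32505 bp. H3K4me3 regions were lost at 6 of 42 (14.3%, with 5.43% to 28.5%) on the WT background, beside 15.4% of all, and at 8 of 45 (17.8%, with 8.002% to 32.1%) on the *Tet2*-/- background, beside 13.3% of all.

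The STAT palindrome TTCNNNGAA reads the same on both strands. It occurred in 17 of the 72 acetylated regions (23.6%), against 16.0% of all 35252, and within 150 bp of the summit of 10 of 61 (WT), 10 of 42 (*Ep300*Δ/Δ), 9 of 54 (*Tet2*-/-), and 6 of 26 (double mutant) peaks, against 7.62%, 7.38%, 7.39%, and 7.88% of all peaks of those lists. RefSeq promoters of 300 bases were available for 9 of the genes, 12 promoters in all. Of these 12, 2 held the palindrome, those of *Cish* and *Socs3*, against 8.30% of 32851 promoters. These regions were chosen as those of known STAT genes, and a match is a stretch of letters, not a measured site. The genes with 1 or more matches in an acetylated region were *Cish*, *Socs1*, *Socs3*, *Pim1*, *Jak1*, *Jak2*, and *Stat5a*. The window of *Stat5b* held matches only in a region at the *Stat5a* promoter.

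Among 20 other genes of the pathway, which include *Jak3*, *Tyk2*, *Socs4* to *Socs7*, the *Pias* genes, and phosphatases and adaptors of the receptors, 19 had H3K27ac at a promoter in all 4 genotypes, beside 40.0% of protein-coding genes, and all 20 had H3K4me3 there in all 4, beside 60.1%. The exception was *Pim2*, a kinase of the same family as *Pim1*, with 2 promoter H3K27ac peaks in *Tet2*-/- cells and 0 in the other 3 genotypes. H3K4me1 was called at a promoter of 18 of the 20 in all 4 genotypes, beside 53.4%. *Pias2* lacked it in WT and *Tet2*-/- cells, and *Pias3* in WT cells. *Socs2* was therefore the only gene of the 30 with no promoter acetylation in any list.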

How the data were processed

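Lin- bone marrow chromatin was immunoprecipitated for 3 histone marks and sequenced, which gave 12 peak lists, 1 library each. The 8 samples of the series for H3 and H3K27me3 were not analysed here. The authors used cutadapt 1.15 for trimming and BWA 0.7.13 for alignment to mm10, removed duplicates with Picard, and called narrow peaks with MACS2 2.1.1.20160309 against the H3 library, kept when found in pseudo-replicates (tools and build from the submitters' processing notes and the methods). The deposited lists give a fold enrichment (a ratio to H3) and, as −log10 values, a *P* value and a *q* value. The deposited score follows the *P* value and was not used. Although the methods state a *q* under 0.05, each list holds peaks above it, from 0.137% of H3K4me3 peaks in WT to 7.17% of H3K27ac peaks in *Ep300*Δ/Δ cells. The labels call the reads single-end and the methods paired-end, and the catalog number of the H3 antibody differs between them. No use of the spike-in for scaling is described, and peak calls move with library depth, which is unknown.

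Gene bodies and transcript starts were from GENCODE M21 on GRCm38 (mm10). Lists were merged in pairs, and a region was shared when both lists overlapped it by at least 1 bp, as in the methods. Promoters were 3000 bp on either side of any transcript start. The members, the pathway and marker lists, and the alternatives were chosen with earlier results of these data known. All 10 genes are named, with the strongest WT region of each, its promoter regions whose call differed, and the strongest lost and gained region outside promoters for each *Ep300* deletion. The *Cish* motif cluster, the *Cish* and *Socs3* downstream regions, and other regions described by their pattern were chosen after their values were seen. Shares carry exact Clopper-Pearson 95% intervals. Alternatives changed the overlap, the distance, the *q* value, the list size, the part of the list, the window, and the promoter. Sequences were read from GRCm38 and the RefSeq promoter table, which has no row for *Socs2*. Merging and overlap were tested on simulated data and against bedtools. The scripts ran in Python 3.11.15 (intervals by scipy 1.17.1, tables by pandas 2.3.3 and numpy 2.4.6, sequences by pysam 0.24.0, plots by matplotlib 3.10.9).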

Additional observations from a re-analysis of the deposited data

Results flagged for a closer look

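Peak counts that moved in opposite directions with *Ep300* deletion on the 2 backgrounds were noted for 5 pairs of a gene and a mark. The number given is the change on the *Tet2*-/- background minus the change on the WT background, and with 1 library per genotype the difference was not tested. For H3K27ac it was -6 peaks at *Socs1*, where the count changed by 2 on the WT background and by -4 on the *Tet2*-/- background. It was -4 at *Socs3*, with changes of 1 and -3, the latter wholly at the promoter of the neighboring *Pgs1*. For H3K4me1 it was 4 at *Socs1*, with changes of -3 and 1, and 3 at *Pim1*, with changes of -2 and 1. For H3K4me3 it was -2 at *Socs2*, with changes of 1 and -1. With a minimum −log10 *q* of 5 for H3K27ac, an alternative chosen after seeing the data, the differences were -2 at *Socs1* and -1 at *Socs3*, and the opposite directions were gone.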

How the results depend on the processing

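No paired analysis was possible because each genotype and mark has 1 library. Of 58 alternatives to 8 shares, 44 stayed inside the interval of the reported share. Each moved share is given beside that of the lists under the same setting. With lists cut to equal size by −log10 *q*, the share of H3K27ac regions lost was 26.3% beside 24.1% on the WT and 35.1% beside 23.5% on the *Tet2*-/- background, and that of active enhancers on the *Tet2*-/- background was 40.0% beside 44.6%. With only peaks above the median fold, the shares were 7.41% beside 12.9% and 14.3% beside 11.8% for H3K27ac, 33.3% beside 44.3% for active enhancers, 8.08% beside 19.9% for H3K4me1, and 0% beside 0.0439% for H3K4me3 on the *Tet2*-/- background, and H3K27ac gains were 0% beside 1.81% and 2.74%. Thus active enhancers on the *Tet2*-/- background went from above the lists (70.0% beside 61.7%) to below them under both settings, and H3K27ac lost on the WT background and H3K4me3 lost on the *Tet2*-/- background did so with peaks above the median. H3K27ac gains on the WT background, at 12.8% beside 12.8%, were below the lists under 5 of 7 alternatives. A −log10 *q* of at least 5 gave 0% beside 4.46% of H3K27ac gained on the WT background and 31.5% beside 44.1% of H3K4me1 lost on the *Tet2*-/- background. Joining regions within 500 bp gave 8.33% beside 25.3% for H3K4me1, and windows of 5 kb gave 91.7% beside 61.7% for active enhancers on the *Tet2*-/- background. Active enhancers on the WT background, at 70.0% beside 63.1%, went below the lists with regions within 500 bp joined (56.2% beside 58.5%) and with promoters of 1500 bp (60.0% beside 62.8%). The cause was not tested. The lack of replicates and unknown depth limit every comparison between genotypes.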
